A study of Mus musculus with 6 samples.

Results

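Connexins are the membrane proteins of gap junctions. Subunits assemble into a ring in the membrane of one cell, dock with a ring in the neighbouring cell and form a channel through which ions and small molecules pass. Stratified epithelia are known for beta-group connexins, smooth muscle and connective tissue cells for Gja1 and Gjc1, and vessel endothelium for Gja4 and Gja5. The 8 genes described here are Gja1, Gja4, Gja5, Gjb1, Gjb2, Gjb5, Gjb6 and Gjc1. They were read in cells of young mice, labelled bladder epithelial cells, on all probe sets annotated to one of them alone, 15 probe sets in all. They are 8 of the 18193 genes that had such a probe set on the array. The list was chosen by a rule that drew on earlier results of the same arrays, namely the difference between the 2 groups, so that difference is given as a description and supports nothing. Counts of calls among these genes are printed only beside the same counts over all probe sets.

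The cells came from bladders of mice at postnatal day 7, labelled male, of strain FVB/N x C57BL/6, with B6;129P-Upk1btm1Zhang/J as the reported gene; Upk1b is a uroplakin of the urothelial surface. All 6 samples shared these labels and differed in whether the cells were DsRed-positive or DsRed-negative. Each group had 3 arrays, numbered 1, 2 and 5 in both. The labels call both groups bladder epithelial cells, state that samples were not pooled, and give neither the way in which the fluorescent cells were parted nor the element that drives DsRed. The labels do not say whether arrays came from separate animals, so errors and p-values cover only the spread among these samples, part of which may be technical.

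Signals are the deposited linear values of each probe set. Values called log2 signal had an offset of 39.84 added before log2 and were then quantile normalized. The control floor of each array was the 95th percentile of 27 control probe sets that match no added RNA, between 7.41 and 8.03 log2 signal. Precision is limited by having 3 arrays a group.

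Upk1b separated the arrays as labelled, with a deposited signal of 48415 to 98990 in DsRed-positive and 2797 to 9626 in DsRed-negative arrays. Both arrays numbered 1 went against their label of male sex. Their Xist signal was 28183 (DsRed-positive) and 45699 (DsRed-negative) against 203 to 546 on the other 4, and their signal of the Y-linked Eif2s3y was 31.2 and 3.83 against 3309 to 8043. The dimmer Y-linked Kdm5d and Uty were also low on both arrays numbered 1 (22.68 and 32.96, 27.89 and 7.79). They did not part the arrays as cleanly, since Kdm5d was 28.42 on DsRed-negative 5 and Uty 33.23 on DsRed-negative 2. Within each group, array 1 thus came from another animal than arrays 2 and 5 if these sex-linked signals are those of the sample. The differences of Gjb2, Gjb6, Gja1, Gjc1 and Gja4 and the number of connexin calls are therefore also given without both of these arrays. So are the partner gene calls that were then lost. Marker counts and medians, single marker genes and similar profiles are given from all 6 arrays only. The cell type label was checked against marker genes. All 12 general epithelial markers and all 6 markers of superficial urothelium were higher in DsRed-positive arrays, by a median log2 difference of 4.20 and 4.35. The superficial list includes Upk1b, the reported gene already used above, so that member is no separate check. All 11 measured fibroblast and matrix genes were lower, by a median of -6.31, and their summed deposited signal was 821534 to 1767440 in DsRed-negative arrays against 15694 to 31452 in DsRed-positive ones. The epithelial sum of the DsRed-negative arrays was 42034 to 101442, below their fibroblast and matrix sum, which goes against a label of epithelial cells alone. The ratio of 3′ to 5′ signal of actin, a sign of RNA quality, was 4.28 to 5.57 in DsRed-positive and 6.85 to 9.49 in DsRed-negative arrays. The same ratio of Gapdh ran the other way, 11.9 to 16.4 in DsRed-positive and 10.2 to 12.8 in DsRed-negative arrays, and the part of either in the results was not tested.

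**Figure D1:**
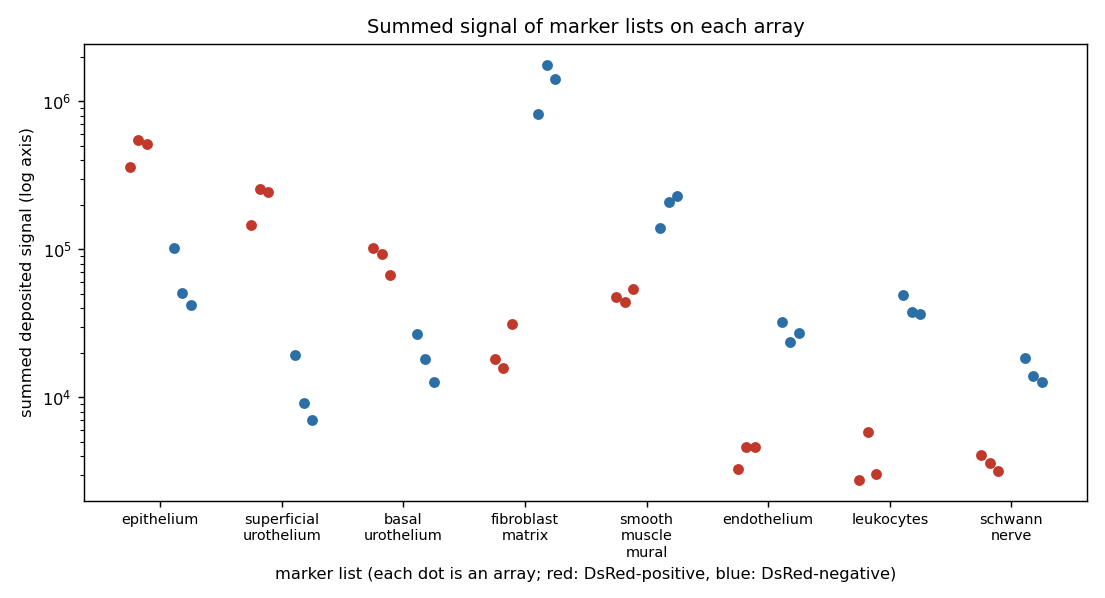
Summed deposited signal (log axis) of 8 marker lists on each array, red for DsRed-positive and blue for DsRed-negative. The 3 lists of epithelium and urothelium lie higher on all DsRed-positive arrays, and the 5 lists of other cells lie higher on all DsRed-negative arrays.

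The connexin genes divided by group. Gjb2 and Gjb6 were bright in DsRed-positive arrays and near the control floor in DsRed-negative ones, whereas Gjc1 and Gja1 were brighter in DsRed-negative arrays by 42.1-fold and 7.81-fold. Gja4 was dimmer and also higher in DsRed-negative arrays, Gjb5 scattered about the floor, and Gja5 and Gjb1 lay below the floor on all 6 arrays. Of the 15 probe sets, 11 passed the filter on dim signal (a mean above 7.18 log2 signal). Of these 11, limma called 2 higher and 6 lower at an adjusted p of 0.05. Over all 30175 tested probe sets it called 17.2%, of which 8.63% higher and 8.62% lower. Groups did not overlap for 2 of the 11 on the higher side and 7 on the lower, and for 38.5% of all tested probe sets, 21% higher and 17.5% lower. Nothing is read from these counts, because the genes were chosen with this contrast known. Without both arrays numbered 1 the calls were 2 higher and 4 lower.

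**Figure D2:**
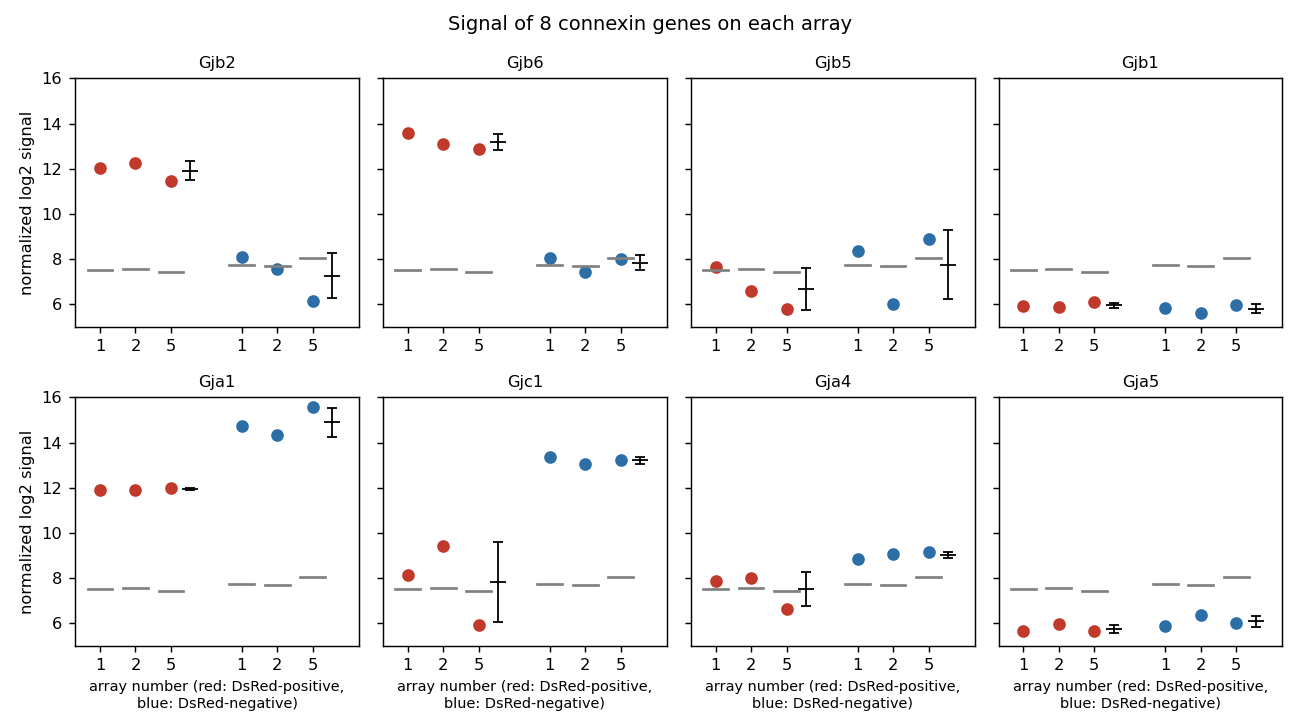
Normalized log2 signal of the brightest probe set of each of the 8 connexin genes on each array, with the control floor of the array as a grey bar and the group mean ± SD (n = 3) in black. Gjb2 and Gjb6 stand high on the DsRed-positive arrays, Gja1 and Gjc1 on the DsRed-negative arrays, and Gjb1 and Gja5 stay under the floor throughout.

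Gjb2 encodes connexin 26, a beta-group connexin of stratified and glandular epithelia and of the cochlea. Its single probe set had deposited signals of 4518, 4952 and 2802 on arrays 1, 2 and 5 of the DsRed-positive group, and of 269, 201 and 38.25 in DsRed-negative arrays 1, 2 and 5. Every DsRed-positive array lay above every DsRed-negative one, and array 5 was the dimmest of both groups. On the log2 scale the means were 11.91 ± 0.42 (SD, n = 3) and 7.25 ± 0.99, a difference of 4.66 ± 0.54 (SE), or 25.2-fold. Only DsRed-negative 1 was above its control floor, so the size of the fold rests partly on signal below that level. The difference was 5.01 without both arrays numbered 1.

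Gjb6 encodes connexin 30, which forms mixed channels with connexin 26 in the cochlea and is found in stratified epithelia. It had the largest positive difference among the 8 genes. Deposited signals were 12443, 8931 and 7660 in DsRed-positive arrays 1, 2 and 5, against 260, 183 and 261 in DsRed-negative arrays 1, 2 and 5. The groups were far apart and each was tight. The log2 means were 13.18 ± 0.35 and 7.82 ± 0.33, a difference of 5.36 ± 0.36, or 40.9-fold, and 5.26 without both arrays numbered 1. Only DsRed-negative 1 exceeded its floor here too. Among 14222 tested genes, 18 had a higher difference than Gjb6 and 77 a higher difference than Gjb2.

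In the DsRed-negative arrays the sums of superficial markers (19203, 9201 and 6994 in arrays 1, 2 and 5), of basal markers (26623, 18073 and 12608) and of general epithelial markers (101442, 50917 and 42034) had the same order. Gjb2 had that order too, with arrays 2 and 5 below the floor, and Gjb6 did not, since DsRed-negative 1 and 5 gave nearly equal signals. In the DsRed-positive arrays, Gjb6 followed the order of the basal urothelial marker sums, which were 102572, 92684 and 67281 in arrays 1, 2 and 5, whereas the superficial sums were 145665, 256603 and 244558. Gjb2 followed neither list there. These sums are of deposited signal, whose highest value was 70573 on DsRed-positive 1, against 144515 and 140119 on DsRed-positive 2 and 5. In log2 signal Upk1a, Upk1b, Upk2 and Upk3a were still lowest on DsRed-positive 1. Upk3b was flat there (15.62, 15.60 and 15.63 on arrays 1, 2 and 5), and Krt20 was highest on array 1 (13.22, 12.39 and 12.70). The basal genes were not uniform on the DsRed-positive arrays either. Krt15, Lamb3 and Col17a1 had the order of the basal sum in deposited and in log2 signal, and Itga6 had it in log2 signal only. Krt5, Krt14, Trp63 and Itgb4 had it on neither scale, so the order of that sum was not shared by the whole list. The part of array scaling in the order of the sums was not tested. With 3 arrays a group no test was made of these orders, and the part of either cell layer in the connexin signals was not tested.

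Gjb5 and Gjb1 complete the beta group. Gjb5, connexin 31.1, is known from mouse epidermis and other stratified epithelia. Its deposited signals were 118, 42.03 and 11.7 on arrays 1, 2 and 5 of the DsRed-positive group, and 329, 33 and 490 in the DsRed-negative ones. The groups overlapped, with DsRed-negative 2 as dim as the DsRed-positive arrays, and 1 and 2 arrays of the groups exceeded the floor. The log2 difference was -1.07 ± 0.81, and it went from -1.90 without both arrays numbered 2 to -0.05 without both numbered 5, so its size rests on single arrays. Gjb1, connexin 32, the gap junction protein of hepatocytes and Schwann cells, had deposited signals of 12.76 to 28.6 on its brighter probe set and 4.52 to 14.47 on the other, below the floor on every array. No fold is given for it, and its sign changed with scaling (0.16 as normalized, -0.0841 with the values as deposited). For Gjb1 these arrays thus give only a bound.

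Gja1 encodes connexin 43, the most widely distributed connexin, found in smooth muscle, fibroblasts and many epithelia. Deposited signals of its brightest probe set were 4127, 3852 and 4104 on arrays 1, 2 and 5 of the DsRed-positive group, and 27791, 21163 and 58163 in DsRed-negative arrays 1, 2 and 5. The DsRed-positive arrays were nearly identical, and DsRed-negative 5 was the highest of all. The log2 means were 11.93 ± 0.04 and 14.90 ± 0.63, a difference of -2.97 ± 0.40, and -3.02 without both arrays numbered 1. Unlike Gjb2 and Gjb6 in DsRed-negative cells, Gja1 stayed well above the control floor in the group where it was dimmer, on all 3 arrays.

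Gja1 was read by 6 probe sets, which allowed a check within the gene. Their differences were -2.97, -3.34, -2.83, -2.72 and -1.73 on 5 probe sets, and -0.42 on the dimmest. For those 5 every DsRed-negative array lay above every DsRed-positive one. On the dimmest probe set the groups overlapped, because DsRed-negative 2 had a deposited signal of 87.24 where DsRed-negative 1 and 5 had 568 and 493. Of the 5 probe sets that differed, 4 carry the suffix _x_at, by which the manufacturer marks probes that may also bind other transcripts. The remaining one has no such mark and gave a value within the range of theirs (-2.83 ± 0.37). The dimmest probe set (-0.42 ± 0.63), whose groups overlapped, is the only other one without the mark. The unmarked probe sets thus did not give the same result.

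**Figure D3:**
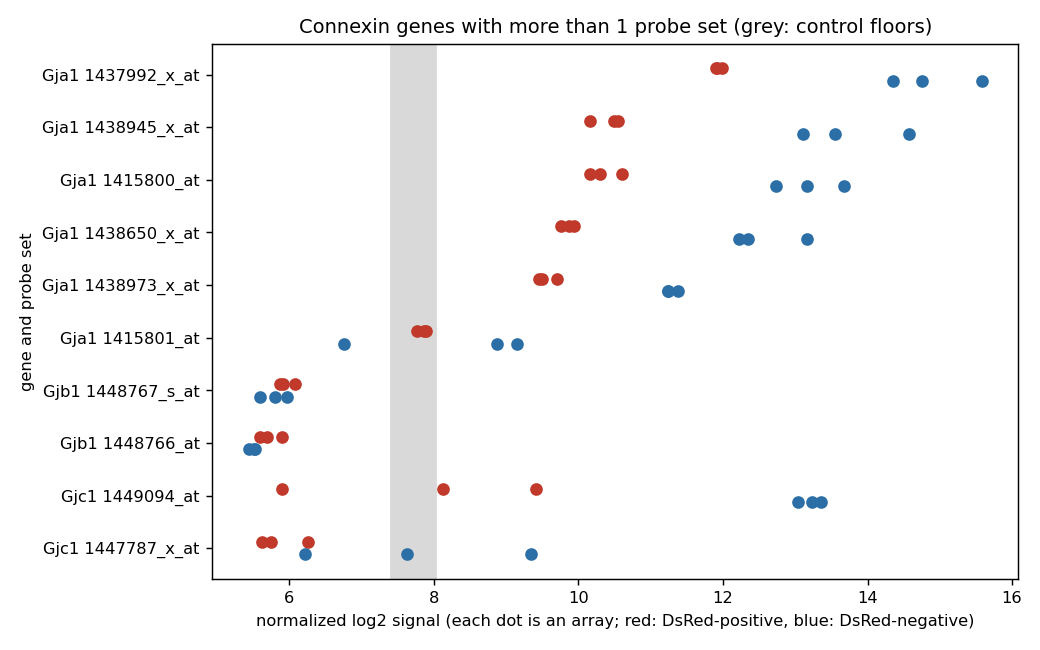
Normalized log2 signal on each array for every probe set of Gja1, Gjb1 and Gjc1, the connexin genes with more than 1 probe set, with the range of the control floors in grey. On 5 of the 6 Gja1 probe sets and on the brighter Gjc1 probe set the groups do not overlap, and both Gjb1 probe sets lie under the floor.

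Gjc1 encodes connexin 45, a connexin of smooth muscle, the cardiac conduction system and the early vessel wall. It showed the largest difference towards DsRed-negative cells among the 8 genes. Deposited signals on its brighter probe set were 179, 555 and 15.64 on arrays 1, 2 and 5 of the DsRed-positive group, and 10311, 7842 and 9247 in DsRed-negative arrays 1, 2 and 5. The DsRed-negative arrays were tight, and the DsRed-positive arrays were scattered, with number 5 below its floor. The log2 means were 7.81 ± 1.78 and 13.21 ± 0.16, a difference of -5.40 ± 0.81. It was -4.44 without DsRed-positive 5 and -5.48 without both arrays numbered 1, where its limma call was lost. The second Gjc1 probe set, also marked _x_at, was below the floor on all DsRed-positive arrays and above it on DsRed-negative 1 alone. Its groups overlapped, and no fold is given for it.

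Gja4 and Gja5 encode connexins 37 and 40, which join endothelial cells of arteries. Gja4 had deposited signals of 144, 163 and 45.36 on arrays 1, 2 and 5 of the DsRed-positive group, and 469, 597 and 596 in the DsRed-negative ones. All DsRed-negative arrays were higher, and DsRed-positive 5 was below its floor. The log2 means were 7.49 ± 0.76 and 9.01 ± 0.14, a difference of -1.52 ± 0.44, which was -1.79 without both arrays numbered 1 and -1.08 without DsRed-positive 5. It was not called by limma as reported, and was called lower in 3 of 19 alternatives. Gja5 had deposited signals of 6.42, 16.43 and 7.64 on the DsRed-positive side (arrays 1, 2 and 5) and 21.82, 54.29 and 30.96 on the DsRed-negative side. These values were below the floor on every array, so no fold is given.

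The signal of other cell types moved with these genes. Endothelial markers were lower in DsRed-positive arrays for 9 of 12 tested genes and higher for 0 of them, and their summed deposited signal was 3251 to 4627 in DsRed-positive against 23767 to 32277 in DsRed-negative arrays. Of the smooth muscle and mural markers, 7 of 11 tested were lower and 1 was higher, with sums of 44310 to 54104 against 139270 to 228846. The one that was higher was the pericyte gene Rgs5 (1.56 ± 0.43, adjusted p = 0.0439, limma), whereas Acta2, smooth muscle actin, was lower (-5.61 ± 0.32, adjusted p = 9.65e-05). Rgs5 made up most of the DsRed-positive muscle sum. Without it the sums of the other 11 genes were 2584 to 3456 in DsRed-positive and 115711 to 204714 in DsRed-negative arrays. Both genes, and the sum without Rgs5, were picked out after the values were seen. Erg and Tie1 of the endothelial list, Kcnj8 and Cnn1 of the muscle list and Thy1 of the fibroblast list were below the floor on all DsRed-positive arrays. The part of these cells in the Gja1, Gjc1 and Gja4 signals was not tested. In such bulk samples, fewer cells of a type and less RNA per cell cannot be told apart.

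Against all tested genes, Gjb2 and Gjb6 lay in the right tail and Gjc1 and Gja1 in the left, as genes chosen with this contrast known. Gja4 and Gjb5 lay further in, and Gja5 and Gjb1 were not tested. Of 14222 genes, 191 had a lower difference than Gjc1, 758 a lower one than Gja1, 1721 a lower one than Gja4 and 2462 a lower one than Gjb5. The median over the 8 genes, of which 6 were tested, was -0.70, beside 0.04 over all tested genes. The middle genes were Gjb5, which scattered about the floor, and Gja5, which lay below it on every array. Nothing is therefore read from this median.

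**Figure D4:**
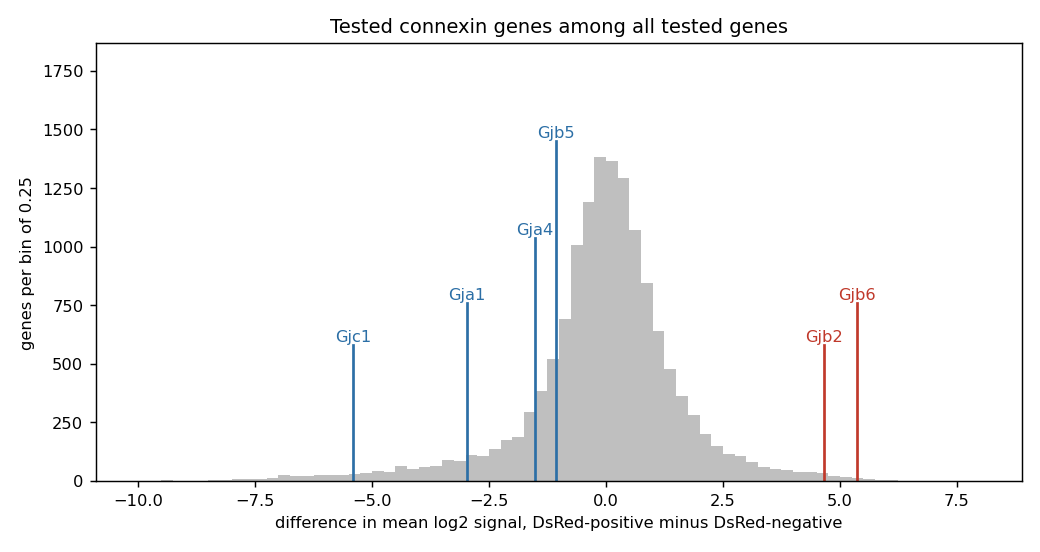
Number of tested genes by difference in mean log2 signal, DsRed-positive minus DsRed-negative, in bins of 0.25, with the 6 tested connexin genes as lines. Gjb2 (4.66) and Gjb6 (5.36) lie in the right tail, Gjc1 (-5.40) and Gja1 (-2.97) in the left.

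The scaling of the arrays bears on these sizes. Before quantile normalization the median log2 signal of the DsRed-positive arrays was lower by -0.54. With the values as deposited Gjb2 differed by 4.48, Gjb6 by 5.13, Gja1 by -3.00, Gjc1 by -5.56 and Gja4 by -2.01. With each array centred on its median the same genes gave 5.02, 5.67, -2.46, -5.02 and -1.47. Their directions were the same with all 3 scalings.

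The genes with profiles most like each connexin were found by the root mean square difference of mean-centred log2 signals over the 6 arrays. Nearest to Gjb2 were Mal (0.23), Dsc2 (0.24) and Tmem238l (0.28). Nearest to Gjb6 were Hook2 (0.21), Fmo5 (0.27) and Slc35g1 (0.28). Gja1 was closest to Sema5a (0.12), Irgm2 (0.18) and Enc1 (0.21), and Gjc1 to Antxr2 (0.14), Tmem47 (0.38) and Tgfb3 (0.40). For Gja4 they were Slc31a2 (0.14), 5430421F17Rik (0.15) and Cd2 (0.15), and for Gjb5 Prcd (0.31), Thnsl2 (0.33) and Gtpbp2 (0.37). Nothing about shared function is read from this likeness.

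Position on the chromosome is a feature that the choice of genes did not use. In the RefSeq annotation of GRCm38.p6, Gjb2 and Gjb6 are direct neighbours on chromosome 14, and the protein-coding neighbour of Gjb2 on its other side is the lens connexin Gja3. Gjb2 and Gjb6 shared the direction of their difference, and Gja3 did not on its brighter probe set. That probe set was below the floor on all DsRed-positive arrays (deposited 7.4 to 55.56) and above it on 2 of 3 DsRed-negative arrays (220 to 419). On it Gja3 was at least 1.52-fold lower in DsRed-positive cells, a bound that includes DsRed-negative 5 just under its floor (7.97 against 8.03). The other Gja3 probe set was below the floor on every array, and its groups overlapped (difference 0.05). The means of both probe sets fell under the filter, and neither was tested. The direction of Gja3 thus rests on 1 dim probe set.

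The sequences before the starts of Gjb2 and Gjb6 are shown because these neighbours were high together, with that of Gja1, the gene on the opposite side with the most probe sets, for comparison. Windows were matched by symbol for 7 of the 8 genes, all but Gjc1. Each is the 250 bases before the RefSeq start in GRCm38.p6, written 5′ to 3′ on the strand of the gene. They lie at chr14:57104703-57104952 (minus strand) for Gjb2, chr14:57133612-57133861 (minus strand) for Gjb6 and chr10:56377050-56377299 (plus strand) for Gja1. Capitals mark matches to any of 5 motifs. The first was the TATA box, searched as TATAAA on the strand of the gene. On both strands the search took the GC box as GGGCGG, the CCAAT box by its name, the AP-1 site as TGANTCA, and the binding site of grainyhead factors as AACCNGTT. None of these motifs overlap in the windows shown.
Gjb2: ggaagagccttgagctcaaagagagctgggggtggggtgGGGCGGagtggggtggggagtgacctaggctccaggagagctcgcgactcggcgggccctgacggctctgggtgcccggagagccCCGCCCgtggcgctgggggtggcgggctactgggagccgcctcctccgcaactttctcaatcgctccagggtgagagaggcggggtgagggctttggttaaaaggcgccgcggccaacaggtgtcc
Gjb6: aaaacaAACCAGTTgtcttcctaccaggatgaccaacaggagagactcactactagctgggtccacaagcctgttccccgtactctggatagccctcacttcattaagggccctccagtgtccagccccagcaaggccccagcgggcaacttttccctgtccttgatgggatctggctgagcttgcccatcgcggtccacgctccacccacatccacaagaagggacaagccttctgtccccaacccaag
Gja1: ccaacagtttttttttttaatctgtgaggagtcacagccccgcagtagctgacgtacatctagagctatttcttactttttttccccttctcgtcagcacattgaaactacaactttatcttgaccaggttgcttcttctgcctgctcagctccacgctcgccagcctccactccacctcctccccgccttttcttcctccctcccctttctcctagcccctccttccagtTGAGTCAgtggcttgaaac

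The Gjb2 window held 2 GC boxes, beginning 211 and 126 bases before the start, and 69.2% of its bases were G or C. The Gjb6 window had a G and C content of 56.8%, with no GC box and 1 grainyhead match 244 bases before the start. The Gja1 window held 1 AP-1 match, 19 bases before the start. The neighbours that were high together thus shared none of the 5 motifs in these windows. Of 32851 RefSeq windows of the same length, 32.7% held a GC box, 6.75% an AP-1 match and 1.79% a grainyhead match, while TATAAA and CCAAT were found in 7.59% and 33.8% but in none of these 3. A match is a description of letters and not a binding site, and no match says nothing about the factor.

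Outside the 8 genes, most of the connexin family was dim. Of 12 other connexins, 6 had a single-gene probe set here (Gja3, Gja10, Gjc3, Gjd2, Gjd4 and Gje1), and none of the 6 was above the floor on any DsRed-positive array. In DsRed-negative arrays Gja10, Gjd4 and Gje1 were below the floor throughout, and Gjc3 and Gjd2 exceeded it on 1 array each. Among the pannexins, channel proteins that resemble connexins without shared sequence, Panx2 and Panx3 were below the floor on all arrays on their brightest probe sets. Panx1, which releases ATP from many cells, was above it everywhere. Its deposited signals were 2007, 1837 and 3249 on arrays 1, 2 and 5 of the DsRed-positive group, and 751, 709 and 1673 in the DsRed-negative ones. The groups did not overlap, and the log2 difference was 1.29 ± 0.47, which did not pass (adjusted p = 0.106, limma). Panx1 was the only one of these 9 genes tested, so 0 were called, and its unadjusted p was 0.0271. In the alternatives its adjusted p ran from 0.0272 to 0.322.

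Genes that bind connexins, modify them or carry and degrade them mostly did not pass the test, and neither did most of all tested genes. Of 24 such genes, 21 had a probe set, and all 21 were tested. By limma, 2 were called higher and 3 lower, against 9.21% higher and 11.3% lower, together 20.5%, of all 14222 genes, and the median difference over the 21 was -0.0033. The 2 that rose were Cdh1 (4.73 ± 0.41, adjusted p = 0.000367), the epithelial cadherin whose contacts precede gap junction assembly, and Ezr (3.66 ± 0.43, adjusted p = 0.00134), a linker of membrane and actin. The 3 that fell were Cav1 (-4.66 ± 0.36, adjusted p = 0.000232), the caveolar coat protein, Cdh2 (-4.38 ± 0.60, adjusted p = 0.00264), the cadherin of muscle and nerve, and Dbn1 (-3.20 ± 0.75, adjusted p = 0.0255), an actin-binding partner of connexin 43. Without both arrays numbered 1, Cdh2 and Dbn1 were no longer called (adjusted p = 0.0510 and 0.215), and Dbn1 also lost its call without DsRed-positive 1 or 5 or DsRed-negative 1 or 2 (adjusted p from 0.0580 to 0.103), without both arrays numbered 5 (0.0866) and with an offset of 1 (0.0782).

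Tjp1, the junction scaffold that anchors connexin 43, had a difference of 1.20 ± 0.38 and did not pass (limma, adjusted p = 0.0685, and 0.0147 to 0.260 over the alternatives). Its groups did not overlap, and it was called higher in 5 of 19 alternatives. The kinases Src (0.83) and Prkca (-1.16), the ubiquitin ligase Nedd4 (-0.05) and the sorting protein Tsg101 (1.01) also did not pass. Over the alternatives the adjusted p ran from 0.0254 to 0.367 for Src, called in 2 of 19, and from 0.0131 to 0.284 for Tsg101, called in 3. It ran from 0.0723 to 0.397 for Prkca and from 0.367 to 0.996 for Nedd4. With no _s_at or _x_at probe sets, Src differed by 1.74. The marker sums of epithelial, muscle and connective tissue cells differed between the same arrays, and their part in the 5 called genes was not tested.

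**Figure D5:**
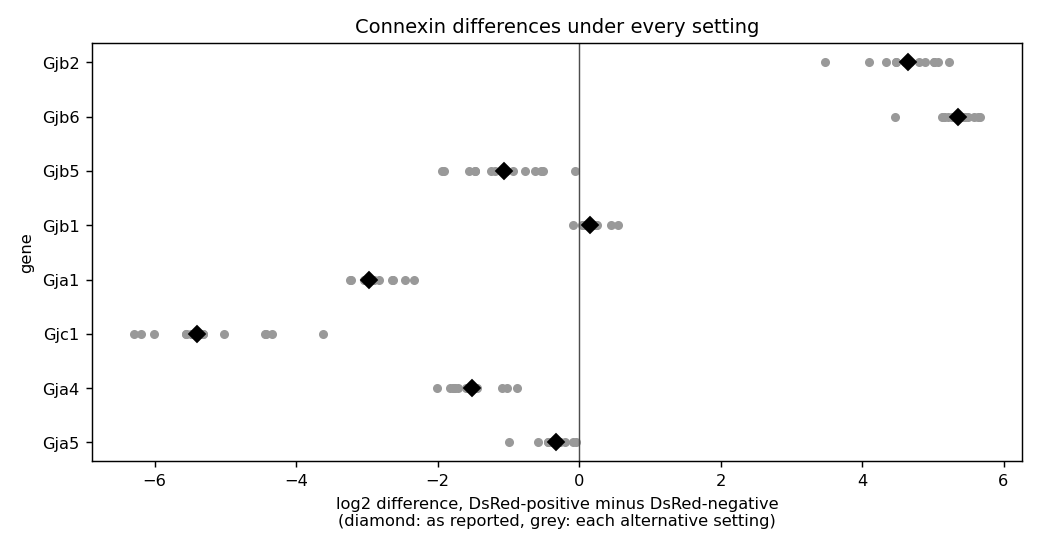
Difference in log2 signal, DsRed-positive minus DsRed-negative, of each connexin gene as reported (diamond) and under every alternative setting (grey). Gjb2, Gjb6, Gja1, Gjc1, Gja4, Gja5 and Gjb5 stay on 1 side of zero, and Gjb1 crosses it. Gja5 and Gjb1 are below the floor on every array, so the side on which they lie has no meaning.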

How the data were processed

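RNA of 6 samples, amplified in 2 rounds per the labels, was read on Affymetrix Mouse Genome arrays. The authors deposited a linear intensity for each of 45101 probe sets. GCOS is the tool listed by the submitters' processing notes; its settings were not found in the labels. Each array's mean was 1500.01 once 2% of values were trimmed from either end, so deposited values had been scaled. An offset of 39.84 (the 20th percentile) was added, log2 was taken and values were quantile normalized. Controls (64) and probe sets whose mean lay at or under the 33rd percentile were left out. The other 30175 entered the test of limma 3.58.1 under R 4.3.3 (lmFit, eBayes, two-sided, Benjamini-Hochberg over all tested probe sets, threshold 0.05), a step also tested on simulated data. Symbols came from the platform annotation, updated through gene IDs: 34945 probe sets had 1 symbol, 932 several and 9160 none. A gene was represented by its brightest single-gene probe set.

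The genes, lists and tests were chosen with earlier results of these data known. Named were the 8 genes, the rest of the connexin and pannexin families, of the partner list up to 4 called in each direction with the smallest p and Tjp1, and the 3 most similar profiles. Src, Prkca, Nedd4 and Tsg101 were added after their values were seen. Marker lists were endothelium, smooth muscle and mural cells, fibroblasts and matrix, leukocytes, nerve and Schwann cells, epithelium, superficial and basal urothelium. Leukocyte markers were lower in 7 of 10 and higher in 0, nerve markers lower in 1 (Ncam1) and higher in 1 (Mbp) of 6, and basal markers higher in 6 of 8 and lower in 0. Alternatives covered scaling, offset, filter, variance model, array weights, probe set choice, the number as a block and leaving out arrays.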

Additional observations from a re-analysis of the deposited data

How the results depend on the processing

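Gjb2, Gjb6, Gja1 and Gjc1 kept their direction in every setting run, as did Gja4. The only settings that moved a difference by more than its spread between arrays were these. With each array centred on its median, Gja1 was -2.46, Gja5 -0.0383 and Gjb1 0.46; with the values as deposited, Gja5 was -0.58 and Gjb1 -0.0841; with an offset of 1, Gja5 was -0.99 and Gjb1 0.55; with an offset at the 50th percentile, which compresses dim signal by construction, Gjb2 was 3.47, Gjb6 4.47, Gja4 -0.88 and Gja5 -0.0793; with the mean of all probe sets, Gja1 was -2.34 and Gjc1 -3.63. Without 1 array at a time, or both of 1 number, the ranges were 4.10 to 5.07 for Gjb2, 5.16 to 5.59 for Gjb6, -3.24 to -2.62 for Gja1, -6.28 to -4.43 for Gjc1, -1.79 to -1.02 for Gja4, -1.94 to -0.05 for Gjb5, -0.44 to -0.20 for Gja5 and 0.06 to 0.25 for Gjb1. Leaving out both arrays of 1 number was added after seeing the data.

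Called connexin probe sets stayed at 2 higher in all settings; the lower ones numbered 2 without _s_at and _x_at probe sets, which leaves 2 of the 6 called, and 4 to 6 without arrays. They numbered 7, with Gja4 among them, with the values as deposited and with the offset or the filter at the 50th percentile. Without both arrays numbered 1, Gjc1 was no longer called. Called higher partner genes numbered 5 with arrays centred on the median, and 4 with an offset at the 50th percentile or with trend and robust estimation; without arrays they numbered 2 to 3, and the lower ones 1 to 3. In the rest of the family, Panx1 was called higher with arrays centred on the median (1 gene) and without DsRed-negative 5. Gja3 was called lower (1 gene) in 5 settings: values as deposited, arrays centred, no filter, no _s_at or _x_at probe sets, and without DsRed-positive 1, so that either count ran from 0 to 1 without arrays. Over all probe sets, 4871 were higher with arrays centred on the median, and without arrays 903 to 2603 were higher and 1237 to 2359 lower. The cause of these shifts was not tested.

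The numbers 1, 2 and 5 were not treated as pairs, since deviations from the group means correlated at 0.145, 0.037 and 0.053 between same-numbered arrays. Each array nevertheless correlated best with its own number. The Xist and Eif2s3y signals also went by number, as both arrays numbered 1 had high Xist and low Eif2s3y and the other arrays the reverse. The labels do not say whether a number stands for an animal, so the unpaired test may pass over a pairing. With the number as a replicate block, the connexin calls were 2 higher and 6 lower, the partner calls 2 higher and 3 lower and all calls 2123 higher and 2281 lower. Signal near the control floor limits Gjb5, Gja5, Gjb1 and the dim sides of Gjb2, Gjb6 and Gjc1.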
